A study of Saccharomyces cerevisiae with 6 samples.

Results

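Cohesin and condensin are the ring-shaped protein complexes that hold chromosomes together and fold them, and 10 genes for their subunits were followed in budding yeast cells with an excess of the RNA-binding protein Yra1. They are SMC1, SMC3, MCD1, IRR1 and PDS5 for cohesin and SMC2, SMC4, BRN1, YCG1 and YCS4 for condensin. A probe set counted as a member when the array platform's gene symbol was one of these names, and each of the 10 genes had 1 probe set, so no choice between probe sets was needed. They make up 10 of 5449 Saccharomyces cerevisiae genes on the array. The rule itself uses no measured value.

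Expression was measured in mid-log cells of strain W303-1A, a MATa laboratory strain with the alleles ade2-1, trp1-1 and ura3-1 and further mutations in CAN1, HIS3 and LEU2. All cells carried a centromeric pRS413 plasmid on which the GAL1 promoter drives YRA1, with the intron in GAL-YRA1 cells (labelled WT) and without it in GAL-YRA1Δi cells (labelled YRA1∆i). The listed genotype has no change at the chromosomal YRA1 gene, and control cells carried the plasmid gene too, so the comparison is of an intron-less with an intron-containing copy and not of plasmid with no plasmid. Cultures grew in raffinose and were moved to 2% galactose for 4 hours, and 3 biological replicates of each group were hybridised to Affymetrix Yeast Genome 2.0 arrays. No synchronisation of the cultures is described, and fewer cells in a cell cycle phase cannot be told apart from less RNA per cell in these bulk samples. Values are log2 RMA signals, a scale on which 1 unit is a doubling, and every change is GAL-YRA1Δi minus GAL-YRA1.

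Each complex is built on a pair of SMC proteins, long coiled coils with an ATPase head, whose heads are bridged by a kleisin subunit. In cohesin Smc1 and Smc3 are joined by the kleisin Mcd1 (Scc1), and Irr1 (Scc3) and Pds5 bind the kleisin. The ring holds sister chromatids together from S phase until separase cuts Mcd1 at anaphase, and it also takes part in the repair of DNA breaks. In condensin Smc2 and Smc4 are joined by the kleisin Brn1, with Ycg1 and Ycs4 as the other subunits, and the complex compacts chromosomes in mitosis and acts at the ribosomal DNA.

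As a check of the labels, YRA1 signal was 13.35, 13.22 and 13.44 in GAL-YRA1 replicates 1, 2 and 3 and 14.48, 14.62 and 14.50 in GAL-YRA1Δi replicates 1, 2 and 3 (log2 change 1.20, SE 0.08). Median signal over the 5498 tested probe sets was 11.16 to 11.18 on the 6 arrays. Of the mating type a markers, STE2, MFA1 and MFA2 lay between 13.29 and 14.09 while BAR1, at 3.14 to 3.47, was below 4.69, the 95th percentile of Schizosaccharomyces pombe probe sets that have no target in these cells. The alpha markers STE3, MF(ALPHA)1 and MF(ALPHA)2 lay between 6.35 and 9.01, and MF(ALPHA)1 was at 7.74 to 9.01 in GAL-YRA1 and 6.61 to 7.82 in GAL-YRA1Δi cells. The part of this marker in the subunit values was not tested. Replicate numbers were treated as pairs of arrays. The replicate 2 arrays stood apart: their deviations from the group means correlated at 0.695 with each other and at -0.64 to -0.492 with replicates 1 and 3 of the other group. Deviations in a group of 3 sum to 0, so the negative values partly follow from the positive one and add little to it.

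None of the 10 subunit genes was found to differ between the groups. At the study's threshold (1.5-fold or more with an adjusted p under 0.01, here in limma) 0 of 10 passed, as did 0% of all tested probe sets. YRA1 itself missed it, at 2.30-fold with an adjusted p of 0.0102 in limma, the lowest value reached by any probe set. A count of 0 at this threshold therefore says little about a gene. At the looser adjusted p below 0.05 with 1.5-fold, 0 of 10 passed, against 0.4% of all. Without adjustment for the number of tests, p was below 0.05 for 0 of 10 genes, where 9.79% of all probe sets were higher and 6.31% lower by that measure. The groups overlapped at every one of the 10 genes, while 13.6% of all probe sets were higher and 8.57% lower with no overlap. With only 10 genes, a count of 0 is not read as lower than these shares.

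The 95% intervals give the size of change that these arrays leave room for. The estimates ran from -0.08 for YCG1 to 0.20 for MCD1 on the log2 scale, and adjusted p from 0.489 to 0.904. All 10 of the 95% intervals lay inside 1.5-fold in either direction, as did 79.2% of those of all probe sets. This is not read as particular to the 10 genes. The widest reach upwards was that of MCD1, at 1.39-fold, and the widest reach downwards that of BRN1, at 0.798-fold. With 3 arrays a group, changes inside these intervals remain possible for each gene. All 10 probe sets lay above the 4.69 level on every array, with signals of 7.08 to 11.94.

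**Figure D1:**
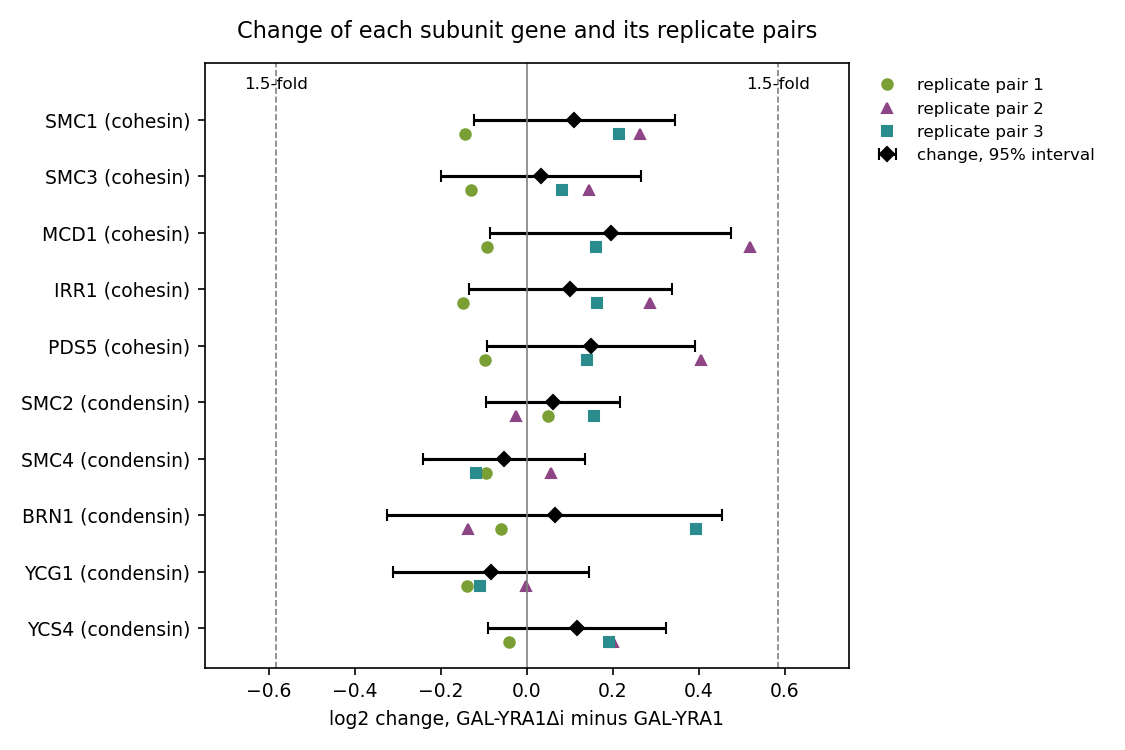
Log2 change, GAL-YRA1Δi minus GAL-YRA1, of the 10 subunit genes (diamonds, with 95% intervals from limma) and the change within each same-numbered replicate pair (coloured symbols). All intervals cross 0 and stay between the dashed 1.5-fold lines, and the 5 cohesin genes have pair 1 below 0 and pairs 2 and 3 above it.

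Among the cohesin genes the SMC subunits were examined first. SMC1 (YFL008W), which encodes an ATPase arm of the ring, had signals of 11.00, 10.80 and 10.74 in GAL-YRA1 replicates 1, 2 and 3 and 10.85, 11.06 and 10.95 in GAL-YRA1Δi replicates 1, 2 and 3. The highest GAL-YRA1 array lay above the lower pair of GAL-YRA1Δi arrays, so the groups overlapped. The change was 0.11 (SE 0.10, 95% interval -0.12 to 0.34, adjusted p = 0.670). SMC3 (YJL074C), the other arm and the subunit that is acetylated when cohesion is set up, had 11.10, 11.11 and 10.96 against 10.97, 11.25 and 11.04 in the same order. Its GAL-YRA1 values lay inside the range of its GAL-YRA1Δi values but for the lowest, and its change was 0.03 (SE 0.10, 95% interval -0.20 to 0.27, adjusted p = 0.904). It is the cohesin gene with the smallest estimate, and the direction turned when GAL-YRA1Δi replicate 2 was left out (-0.05).

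MCD1 and the proteins that bind it came next. MCD1 (YDL003W), the kleisin that separase cleaves and whose gene is transcribed around the start of S phase, had signals of 11.11, 10.80 and 10.95 in GAL-YRA1 replicates 1, 2 and 3 and 11.01, 11.32 and 11.11 in GAL-YRA1Δi cells. Within each group its 3 arrays spanned 0.31. The change was 0.20 or 1.14-fold (SE 0.12, 95% interval -0.09 to 0.48, adjusted p = 0.489). MCD1 thus had the highest estimate of the 10 genes, yet the difference between groups was smaller than the span among replicates. Without GAL-YRA1Δi replicate 2 it was 0.11, without GAL-YRA1 replicate 2 it was 0.12, and without both it was 0.03.

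IRR1 (YIL026C), the Scc3 subunit needed for cohesin to stay on chromatin, had signals of 10.66, 10.44 and 10.42 in GAL-YRA1 cells and 10.51, 10.73 and 10.58 in GAL-YRA1Δi cells. Its order of arrays was close to that of SMC1, with replicate 1 the highest of the GAL-YRA1 arrays and the lowest of the GAL-YRA1Δi arrays. The change was 0.10 (SE 0.10, 95% interval -0.14 to 0.34, adjusted p = 0.697). PDS5 (YMR076C), which both maintains cohesion and takes part in cohesin release, had 11.77, 11.54 and 11.64 against 11.67, 11.94 and 11.78. GAL-YRA1 replicate 1 lay above GAL-YRA1Δi replicate 1 and just under replicate 3 of that group. The change was 0.15 or 1.11-fold (SE 0.10, 95% interval -0.09 to 0.39, adjusted p = 0.555), and 0.02 without the replicate 2 arrays of both groups.

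At 4 of the 5 condensin genes, all but YCG1, the SD among GAL-YRA1Δi arrays was 0.03 to 0.05 (n = 3). SMC2 (YFR031C), an ATPase arm of condensin, had signals of 11.47, 11.51 and 11.37 in GAL-YRA1 replicates 1, 2 and 3 and 11.52, 11.48 and 11.53 in GAL-YRA1Δi replicates 1, 2 and 3. The change was 0.06 (SE 0.06, 95% interval -0.10 to 0.22, adjusted p = 0.726), and this was the narrowest interval of the 10 genes. SMC4 (YLR086W), the other arm, had 10.34, 10.14 and 10.34 against 10.25, 10.19 and 10.22. All 3 GAL-YRA1Δi values of SMC4 fell between those of the GAL-YRA1 arrays, with a change of -0.05 (SE 0.08, 95% interval -0.24 to 0.14, adjusted p = 0.806).

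BRN1 (YBL097W), the kleisin of condensin, had the widest interval of the 10 genes. Its signals were 7.61, 7.66 and 7.08 in GAL-YRA1 cells and 7.55, 7.52 and 7.47 in GAL-YRA1Δi cells. GAL-YRA1 replicate 3 stood below the other 5 arrays, and the sign of the change turned with it, which was 0.06 (SE 0.16, 95% interval -0.32 to 0.45, adjusted p = 0.883) with it and -0.12 (SE 0.07, adjusted p = 0.559) without it. The SD was 0.32 (n = 3) in GAL-YRA1 cells and 0.04 (n = 3) in GAL-YRA1Δi cells.

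Of the remaining condensin subunits, YCG1 (YDR325W) had signals of 10.49, 10.64 and 10.54 in GAL-YRA1 cells and 10.35, 10.64 and 10.43 in GAL-YRA1Δi cells. It was high on replicate 2 of both groups, and its change was -0.08 (SE 0.09, 95% interval -0.31 to 0.14, adjusted p = 0.738). YCG1 was also the gene with no positive pair, at -0.14, -0.0032 and -0.11 in pairs 1, 2 and 3. YCS4 (YLR272C) had 10.89, 10.63 and 10.74 against 10.85, 10.83 and 10.93. Its GAL-YRA1 replicate 1 lay above all but the highest GAL-YRA1Δi array, and its change was 0.12 (SE 0.08, 95% interval -0.09 to 0.32, adjusted p = 0.599).

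**Figure D2:**
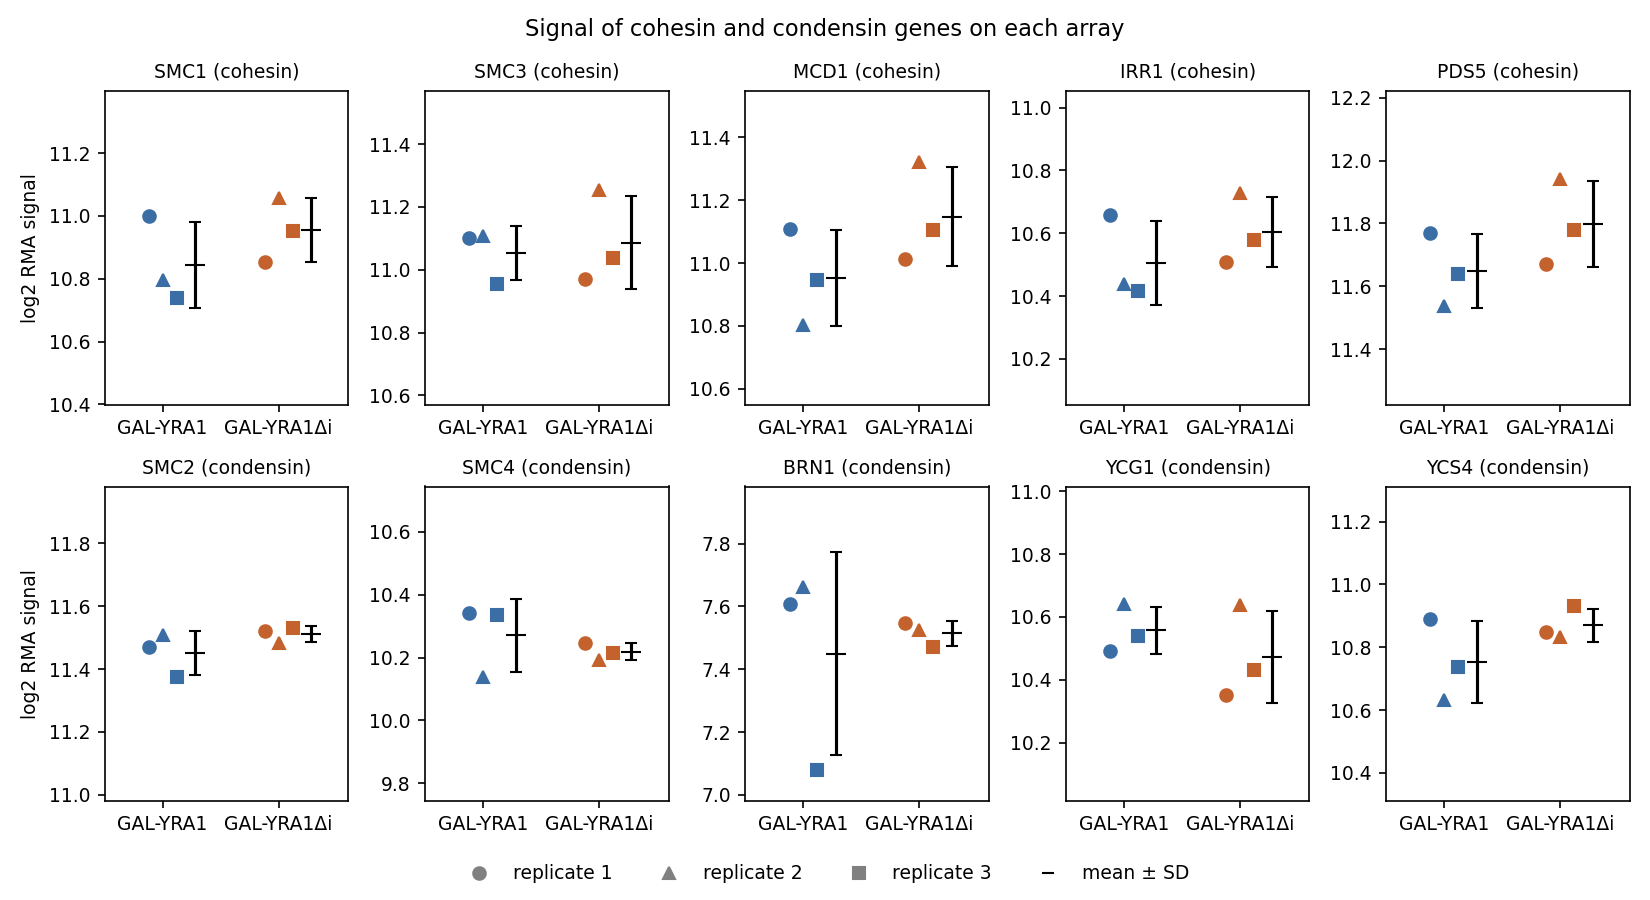
Log2 RMA signal of the 10 subunit genes on each of the 6 arrays (symbols give the replicate number), with the mean ± SD of each group (n = 3) in black. Each panel spans 1 log2 unit. The groups overlap in every panel, and GAL-YRA1Δi replicate 2 is the top point in all 5 cohesin panels.

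The 5 cohesin genes shared a pattern from array to array. This was noticed after the values were seen and is given as a description. GAL-YRA1Δi replicate 2 was the highest of the 6 arrays for 5 of 5 cohesin genes and for 0 of 5 condensin genes. It took that place for 21.1% of all probe sets and 17 of the 60 measured genes in 8 lists of related genes described further on. Among these lists it did so for 4 of 8 genes of cohesion establishment and 2 of 6 of cohesin cleavage. Relative to each gene's GAL-YRA1 mean, the cohesin genes were at 0.20 to 0.37 on that array, with a mean of 0.26. They averaged 0.00316 on GAL-YRA1Δi replicate 1 and 0.09 on replicate 3. In GAL-YRA1 cells they averaged 0.13 on replicate 1, -0.06 on replicate 2 and -0.06 on replicate 3.

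With arrays paired by replicate number, the changes of cohesin therefore did not hold 1 direction. No label says that same-numbered cultures were paired. Replicates 1 and 3 correlated better crossed (0.664 and 0.582) than by number (0.344 and 0.301), so the sizes of the changes in pairs 1 and 3 rest on the numbering. In pair 1 all 5 genes were lower in GAL-YRA1Δi cells, by -0.15 (IRR1) to -0.09 (MCD1). In pair 2 all 5 were higher, by 0.14 (SMC3) to 0.52 (MCD1), and in pair 3 all 5 were higher, by 0.08 (SMC3) to 0.21 (SMC1). The signs mostly held when numbers 1 and 3 were crossed. GAL-YRA1Δi replicate 3 was below GAL-YRA1 replicate 1 for all cohesin genes but PDS5 (11.78 against 11.77), though barely for MCD1 (11.106 against 11.108). GAL-YRA1Δi replicate 1 was above GAL-YRA1 replicate 3 for every cohesin gene. By number, the order of signs lower in pair 1 and higher in pairs 2 and 3 was found for 5 of 5 cohesin genes and for YCS4 alone among the condensin genes. It was found for 16 of the 60 related genes and 7.58% of all probe sets. The genes of cohesin cleavage had it in 3 of 6, with medians of -0.08, 0.25 and 0.23 in pairs 1, 2 and 3. Those of cohesion establishment had it in 3 of 8. The median cohesin change was -0.13, 0.29 and 0.16 in pairs 1, 2 and 3, against medians of 0.00996, 0.0058 and 0.0105 over all probe sets. The 5 genes were read on the same 6 arrays, so they are not independent of each other. Pairs 1 and 3 hold no replicate 2 array. The median cohesin change was 0.11 on all arrays, 0.19 without GAL-YRA1 replicate 1 and 0.02 without both replicate 2 arrays. The replicate 2 arrays stood apart over all probe sets as well. The part of these arrays' common deviation in the cohesin values was not tested.

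In condensin no such order was seen. Of its 5 genes, 1 was higher in pair 1, 2 in pair 2 and 3 in pair 3, and the medians were -0.06, -0.0032 and 0.16. Mean deviations on the 3 GAL-YRA1Δi arrays were 0.0068, 0.04 and 0.02, and single genes ranged from -0.20 to 0.18. The difference between the complexes was not tested, since the pattern was chosen on these values. The estimates over all arrays were positive for 5 of 5 cohesin genes (median 0.11) and 3 of 5 condensin genes (median 0.06). Over all probe sets 2879 of 5498 were positive, with a median of 0.0091.

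**Figure D3:**
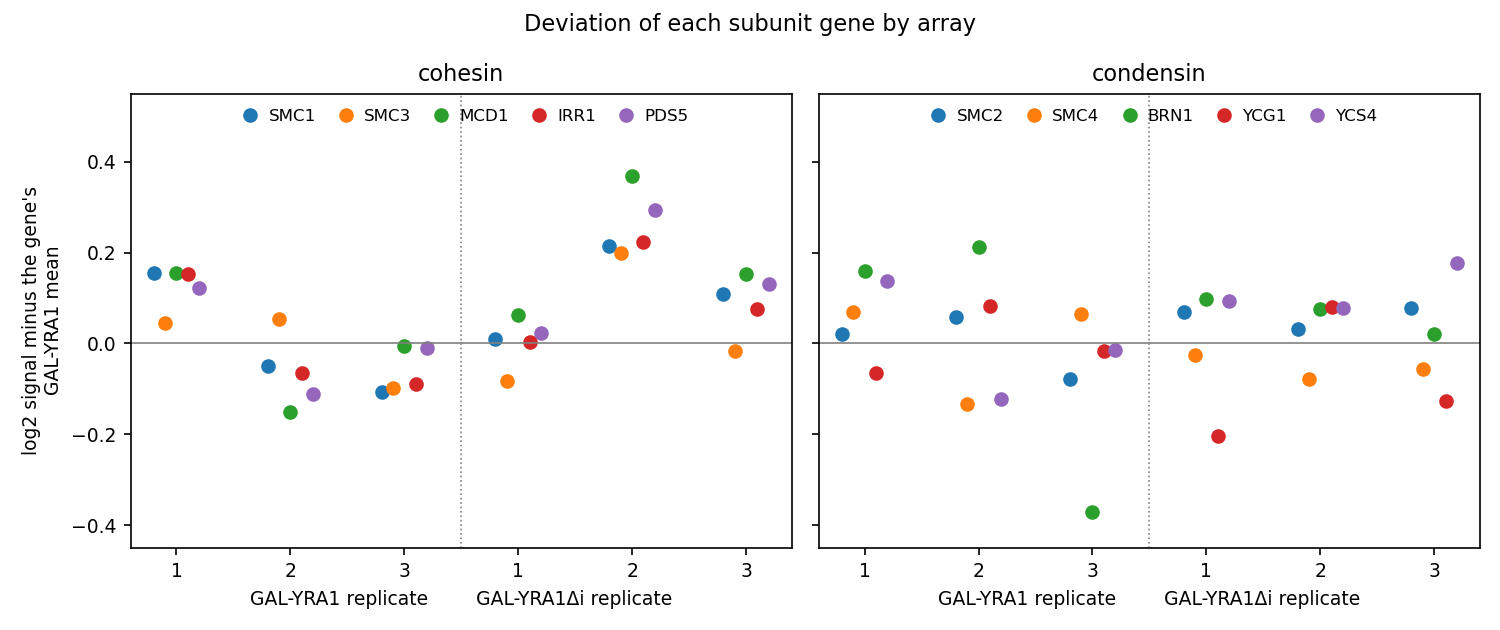
Log2 signal on each array minus the same gene's mean over the 3 GAL-YRA1 arrays, for the cohesin genes (left) and the condensin genes (right). Each point is 1 gene on 1 array. On GAL-YRA1Δi replicate 2 the cohesin genes lie at 0.20 to 0.37, while the condensin genes spread around 0 on all arrays but for BRN1 at -0.37 on GAL-YRA1 replicate 3.

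At 4 cohesin genes, SMC1, MCD1, IRR1 and PDS5, replicate 2 was also below the mean of the other 2 arrays in GAL-YRA1 cells while it was above it in GAL-YRA1Δi cells. Across all probe sets 8.53% did so, and 18 of the 60 related genes. MCD1 lay 0.23 below in GAL-YRA1 cells (difference -0.23) and 0.26 above in GAL-YRA1Δi cells. At SMC3 replicate 2 was above in both groups, by 0.08 and 0.25. Of the genes expressed at the start of S phase, the G1/S list, 9 of 13 had that arrangement, but 3 of 13 had the cohesin order of signs over the pairs and 5 of 13 were highest on GAL-YRA1Δi replicate 2. Of the G2/M list, 1 of 7 had the arrangement, 4 of 7 the order of signs and 2 of 7 the highest value on that array. The median change of the G1/S list was -0.28, 0.20 and -0.04 in pairs 1, 2 and 3, and that of the G2/M list was -0.06, 0.29 and 0.31. The part of cell cycle phase in the cohesin values was not tested.

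To place the subunits among the genes they act with, 8 further lists were examined, with 60 of 61 genes measured. In limma, 9 of the 60 were higher and 0 lower at an unadjusted p below 0.05, beside 9.79% and 6.31% of all probe sets, and 0 had an adjusted p below 0.05. The groups did not overlap for 13, 11 higher and 2 lower, beside 13.6% and 8.57% of all. Shares this near the background are not a result about these lists. Estimates were positive for 41 of the 60, beside 2879 of 5498 over all probe sets. The genes were read on the same arrays and are not independent, so a run of 1 sign is not read as a result.

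The lowest p among these listed genes was that of ECO1, the acetyltransferase that modifies Smc3 during S phase so that cohesin holds sister chromatids. Its signals were 9.06, 8.98 and 8.84 in GAL-YRA1 replicates 1, 2 and 3 and 9.47, 9.55 and 9.44 in GAL-YRA1Δi replicates 1, 2 and 3. Every GAL-YRA1Δi array was above every GAL-YRA1 array, and the gap was larger than the span within either group. The change was 0.52 or 1.44-fold (SE 0.08, 95% interval 0.33 to 0.72), and 0.41, 0.57 and 0.60 in pairs 1, 2 and 3. Its adjusted p was 0.0652 with limma, and 0.0407 with the replicate block, where 2.6% of all probe sets had an adjusted p below 0.05. It stayed under 1.5-fold. Over the alternatives the adjusted p of ECO1 ran from 0.00636 with array weights to 0.315 with GAL-YRA1Δi replicates 1 and 3 averaged as 1 array. The study lists ECO1, CDC20 and SWI5 as up-regulated on these arrays, each under 1.5-fold and so short of the fold minimum of its methods. Their values here are not independent evidence.

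The other 4 genes of cohesin loading, acetylation and release gave smaller values. SCC2, a subunit of the loader that puts cohesin on chromosomes, was at 10.75, 10.55 and 10.65 against 10.75, 10.73 and 10.77, with a change of 0.10 (adjusted p = 0.602). HOS1, which removes the acetyl groups that Eco1 adds, did not overlap between groups but differed by only 0.11 (SE 0.06, adjusted p = 0.440). The loader partner SCC4 differed by -0.01 and the release factor RAD61 by -0.23 (adjusted p = 0.447).

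Genes that control the cleavage of cohesin had positive estimates for 6 of 6, with a median of 0.10. CDC20, the activator of the anaphase-promoting complex that leads to separase release, was at 10.13, 10.15 and 10.03 against 10.34, 10.40 and 10.41. The groups did not overlap, with a change of 0.28 (SE 0.06, 95% interval 0.13 to 0.44) that did not pass after adjustment (adjusted p = 0.130, and 0.0141 to 0.489 over the alternatives). SGO1, the protector of centromeric cohesin, differed by 0.12 (adjusted p = 0.611), securin PDS1 by 0.08 and separase ESP1 by 0.01.

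Of 8 genes that set up cohesion at the replication fork, 6 had positive estimates and the median was 0.08. DCC1, a subunit of the Ctf18 clamp loader, was at 10.26, 10.33 and 10.32 against 10.54, 10.51 and 10.50, with no overlap and a change of 0.21 (SE 0.06, adjusted p = 0.159, and 0.0180 to 0.544 over the alternatives). CTF18 itself differed by -0.14 and CTF8, the other partner in that loader, by 0.08, so the 3 estimates did not share a direction. TOF1, of the fork protection complex, had the lowest estimate of the list, -0.15 (unadjusted p = 0.147 in limma). The third SMC complex, Smc5/6, which acts in repair, had 4 positive and 4 negative estimates with a median of 0.01. In the fit on group alone its lowest p values belonged to NSE3 (-0.12, adjusted p = 0.501) and NSE4 (-0.15, adjusted p = 0.599), and with the replicate block the lowest was that of NSE5 (0.16, unadjusted p = 0.0392 in limma, adjusted p = 0.173).

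Among 9 partners and recruiters of condensin, 6 had positive estimates (median 0.05). TOP2, the topoisomerase that untangles chromosomes in mitosis, was at 11.76, 11.69 and 11.76 against 11.85, 11.91 and 11.88. Its groups did not overlap, with a change of 0.15 (SE 0.06, adjusted p = 0.301). CSM1, a monopolin subunit found at the ribosomal DNA, was at 10.81, 10.75 and 10.89 against 11.05, 11.16 and 10.97, a change of 0.25 (SE 0.08, adjusted p = 0.211). It was 0.24, 0.41 and 0.08 in pairs 1, 2 and 3. The largest estimate of the list was that of SLI15 (0.27, adjusted p = 0.416 in limma), whose groups overlapped. With the replicate block the lowest p was that of CDC14 (0.20, unadjusted p = 0.0151 in limma, adjusted p = 0.117).

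REC8, the kleisin that replaces Mcd1 in meiosis, did not separate the groups, at 7.58, 7.46 and 7.44 against 7.66, 7.31 and 7.57 (change 0.02, adjusted p = 0.952). MEK1, a meiotic kinase of the chromosome axis, was at 5.29, 5.76 and 5.31 against 6.35, 5.77 and 6.14. Its replicate 2 arrays nearly met, so that its change of 0.63 (SE 0.19, adjusted p = 0.194) was 1.06, 0.01 and 0.82 in the 3 pairs. It passed the study's threshold with array weights (0.85, adjusted p = 0.00762), was 0.94 (adjusted p = 0.0105) without the replicate 2 arrays and fell to 0.13 (adjusted p = 0.695) with quantile normalization. The axis gene HOP1 differed by -0.13 (adjusted p = 0.824).

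For the cell cycle lists, the G1/S transcripts were 7 positive and 6 negative (median 0.02). The replication genes CDC45 (0.21, adjusted p = 0.284 in limma) and PRI2 (0.15, adjusted p = 0.348) had the lowest p. The largest change by size was negative, that of CLN2 (-0.23, adjusted p = 0.601). POL12 was lower with no overlap (-0.16, adjusted p = 0.373). In the G2/M list 6 of 7 measured genes were positive (median 0.19), with the transcription factor gene SWI5 at 0.43 (SE 0.10, adjusted p = 0.134, and 0.0202 to 0.467 over the alternatives) and the haspin-like kinase gene ALK1 at 0.37 (SE 0.11, adjusted p = 0.188, and 0.0333 to 0.566 over the alternatives). The cyclin gene CLB1 went the other way, at -0.30 (adjusted p = 0.461 in limma) and -0.72, -0.04 and -0.15 in pairs 1, 2 and 3, while CLB2 was at 0.19. SWI5 was at 10.97, 10.63 and 10.72 against 11.21, 11.17 and 11.22, with no overlap.

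**Figure D4:**
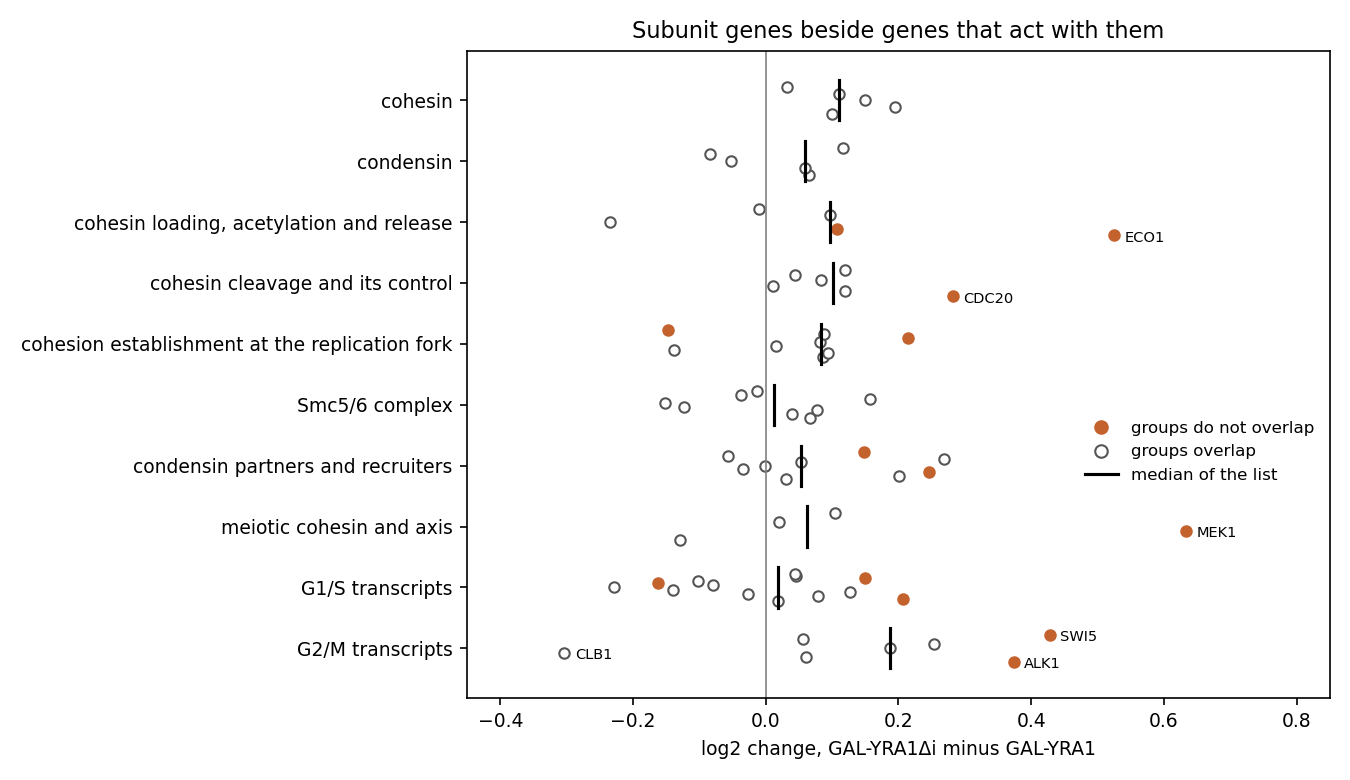
Log2 change, GAL-YRA1Δi minus GAL-YRA1, of each measured gene in the cohesin and condensin lists and in 8 lists of genes that act with them (1 point per gene, bars are list medians). Filled points are genes whose groups do not overlap on the 6 arrays. None of these is a cohesin or condensin subunit gene, and ECO1 at 0.52 and MEK1 at 0.63 lie farthest from 0.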

How the data were processed

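Per the labels and the study's methods, the authors deposited log2 values made by RMA (background correction, quantile normalization, summary per probe set) for 10928 probe sets on 6 arrays, with limma named and no version given in the sources used here. RMA makes array distributions alike, so a shift of most transcripts would not be seen, and the number of arrays limits precision. Gene names came from the array platform's annotation, updated with RefSeq (assembly R64), which left 5498 probe sets of 5449 S. cerevisiae genes. The fit used lmFit and eBayes of limma 3.58.1 (R 4.3.3) on group alone, with Benjamini-Hochberg adjustment over all 5498 and no filter. The fit was tested on simulated data with noise that was independent between arrays and planted changes larger than any estimated for the subunit genes. That test therefore does not cover the deviation shared by the replicate 2 arrays.

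The rule for named genes took all 10 subunit genes, YRA1, ECO1, SCC2, TOP2, REC8 and the 2 lowest p values in each other list. A few more list members were named after their values were seen. The members and lists were chosen with earlier results of these data known. Replicate numbers were treated as pairs, since same-numbered arrays correlated above 0.1 for all 3 numbers (0.344, 0.695 and 0.301). The crossed combinations of numbers 1 and 3 gave higher values (0.664 for GAL-YRA1 replicate 1 with GAL-YRA1Δi replicate 3, and 0.582 for the reverse). Alternatives were other normalizations, a filter on dim probe sets, all probe sets, the replicate block, other eBayes settings, array weights and leaving out arrays. A listed gene is not reported here.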

Additional observations from a re-analysis of the deposited data

How the results depend on the processing

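Under 16 alternatives, 0 of the 10 subunit genes passed the study's threshold, and 0 had an unadjusted p below 0.05 in either direction. That includes the replicate block (0) and each array left out. The counts over all 5498 probe sets moved far more: at the study's threshold 0 passed in the reported fit, 152 with array weights and 89 with both replicate 2 arrays left out, and at an unadjusted p below 0.05 538 were higher and 347 lower, against 1146 and 828 with array weights and 1008 and 797 without the replicate 2 arrays. Looser thresholds on the same fit also gave 0. The lowest adjusted p of a subunit gene was 0.221. All 10 intervals stayed within 1.5-fold but for 1 gene when both replicate 2 arrays, GAL-YRA1 replicate 1 or GAL-YRA1Δi replicate 1 were left out.

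The median cohesin change ran from 0.02 (both replicate 2 arrays left out) to 0.19 (without GAL-YRA1 replicate 1). The median of condensin was -0.067 after the tested probe sets were quantile normalized again, and ran from -0.021 to 0.070 with 1 array left out. SMC3 was at -0.035 with array weights, -0.024 with both replicate 2 arrays left out and -0.051 to 0.090 with 1 array left out. IRR1 was at -0.00081 with array weights. BRN1 was at -0.20 with quantile normalization and -0.12 to 0.17 with 1 array left out. In REC8 the change was -0.24 with quantile normalization, -0.031 with GAL-YRA1Δi replicates 1 and 3 averaged, and -0.053 to 0.12 with 1 array left out. SGO1 was at -0.0047 with both replicate 2 arrays left out. HOP1 was at 0.074 with array weights, 0.16 with both replicate 2 arrays left out and -0.29 to 0.065 with 1 array left out. The cause of these turns was not tested. GAL-YRA1Δi replicate 2 was the highest array for 5 of 5 cohesin genes under both other scalings, which were tried after the pattern was seen. With array weights the adjusted p fell below 0.05 for ECO1, CDC20, DCC1, MEK1, SWI5 and ALK1, which it did not do in the reported fit. Calls rose over the whole array with these weights. At an adjusted p below 0.05 with 1.5-fold, 217 of 5498 probe sets passed, against 22 in the reported fit. These calls are therefore not read as a result about the named genes. No subunit gene had a further probe set to try.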
